A study of Mus musculus with 4 samples.

Results

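The genes described here burn fatty acids or answer to the receptors that control this burning. They are 37 genes chosen by name: 19 act in mitochondria, 6 in peroxisomes, and 12 regulate the pathway or handle fatty acids before they are burnt. They were read in Paneth cells, which release antimicrobial proteins from the bottom of small intestinal crypts, cut out of frozen sections by laser. The conventionalized mice were NMRI males, 8 weeks old, that had been germ-free and were then colonised for 10 days with the gut flora of an ordinarily raised mouse. The germ-free mice were NMRI males of the same age kept without microbes until they were killed. Captured RNA of 3 mice was pooled within a group, and 2 aliquots of each pool were amplified and hybridised, so 2 arrays stood for each group and differed from each other by amplification and array error alone. Each gene was read at its probe set, the group of short probes that measures 1 transcript, with the highest mean signal over the 4 arrays. Of 18193 genes named on the array, 35 members had such a probe set. No probe set bore the name of Acsl1 or Ucp2 in the annotation used, and these 2 are not analysed here. For 33 members the mean signal passed the filter of 113.9, and these were tested. Ppard and Pparg lay under the filter and are given as values. Gene names come from the platform annotation.

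Fatty acids enter cells through carriers such as CD36 and are joined to coenzyme A by acyl-CoA synthetases. Long chains cross into mitochondria as carnitine esters, where a spiral of dehydrogenation, hydration, a further dehydrogenation and thiolysis shortens them step by step and passes electrons to the respiratory chain through the electron transfer flavoprotein. Peroxisomes shorten very long, branched and dicarboxylic chains with enzymes of their own. PPAR-alpha, PPAR-delta and PPAR-gamma, nuclear receptors that bind fatty acids and pair with the retinoid X receptor, drive many of these genes. In the small intestine the pathway is known best from absorptive enterocytes, which take up dietary fat.

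No member passed the test. Limma, with p-values adjusted over all 22491 probe sets tested, called 0 of 33 members, against 0.333% of all probe sets, and the lowest adjusted p among the members was 0.587, that of Cd36. At an unadjusted limma p under 0.05 there were 5 members, Cpt1a, Slc25a20, Ehhadh, Hsd17b4 and Cd36, all with the lower signal in conventionalized cells. That is 15.2% of the members tested, beside 5.94% of the 12113 genes tested, in either direction. Of the 719 genes under that threshold, 474 likewise had the lower signal in conventionalized cells. The conventionalized signals lay below both germ-free signals for 8 members, Cpt1a, Cpt2, Slc25a20, Acaa2, Ehhadh, Hsd17b4, Ppara and Cd36. They make up 24.2% of the members tested, beside 16.1% of all genes tested. When the arrays were scaled to a common median, the shares were 18.2% and 16.5%. The shares were 51.5% and 29.3% without germ-free replicate 1, and 27.3% and 34.2% without germ-free replicate 2. For 4 members, Hadh, Decr1, Bdh1 and Angptl4, the conventionalized signals lay above both germ-free ones, or 12.1% beside 15.9%. A log2 difference of -1 or lower was found for 4 members, Slc25a20, Ehhadh, Ppara and Cd36, or 12.1% beside 6.29% of all genes.

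Differences between the 3 classes were not tested, and their medians are given as descriptions. The median log2 difference, conventionalized minus germ-free on the log2(signal + 32) scale, was -0.01 for the 19 mitochondrial members, with 9 above 0 and 10 below. It was -0.26 for the 6 peroxisomal members, with 1 above 0 and 5 below, and -0.21 for the 8 regulatory and lipid-handling members tested, with 3 above 0 and 5 below. All 12113 genes tested had a median of 0.00, and 6054 of them lay below 0. The peroxisomal median was -0.49 when germ-free replicate 1 was left out and -0.04 when germ-free replicate 2 was; the mitochondrial median was then -0.12 in the first case and 0.09 in the second. The regulatory median was likewise -0.04 when germ-free replicate 2 was left out and -0.32 when conventionalized replicate 1 was.

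**Figure D1:**
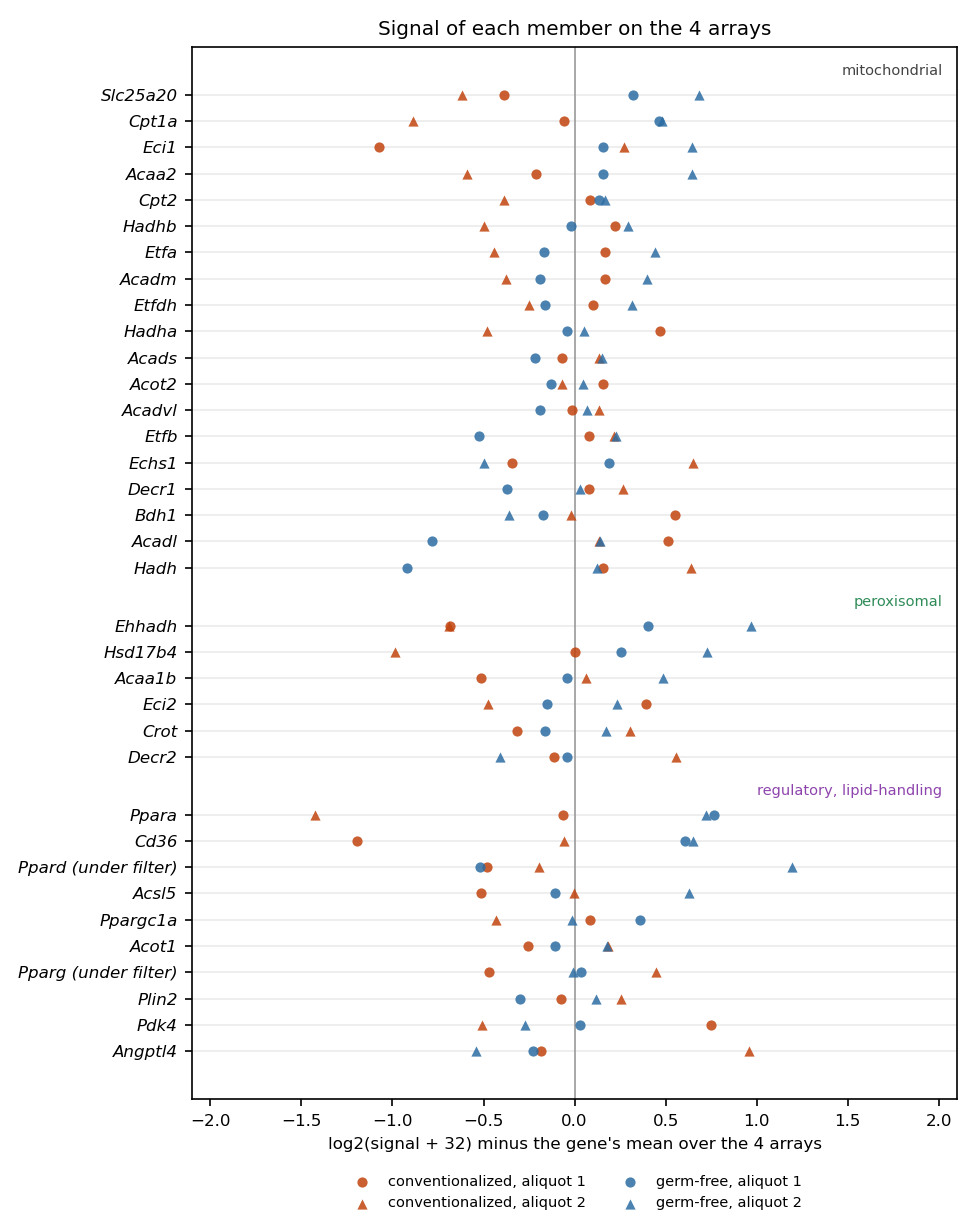
Each row is a member, and the horizontal axis gives log2(signal + 32) on each array minus the gene's mean over the 4 arrays; orange marks are the 2 conventionalized arrays, blue marks the 2 germ-free arrays, circles aliquot 1 and triangles aliquot 2. In 8 rows, among them Slc25a20, Ehhadh and Cd36, both orange marks lie left of both blue ones.

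Several array-wide facts bear on these values. The deposited signals were scaled alike, to the same trimmed mean on each array, while array medians ran from 102.4 to 135.9 in conventionalized and from 86.5 to 132.8 in germ-free cells. Duplicates were far apart: the SD of the log2 difference between aliquots was 1.05 in conventionalized and 0.83 in germ-free cells. All 4 arrays shared a hybridisation day, but both conventionalized arrays ran on fluidics station 2 and both germ-free ones on station 1, and the effects of station and colonisation cannot be told apart. Paneth markers were bright on every array, for example Lyz1, the Paneth cell lysozyme, at 80184 and 249594 in conventionalized and 24112 and 51494 in germ-free cells. Enterocyte markers were bright as well, for example Fabp2, an intestinal fatty acid binding protein, at 51528 and 142558 in conventionalized and 20981 and 45252 in germ-free cells. Itln1, a lectin, read 49311 and 49285 in conventionalized and 8885 and 21031 in germ-free cells, and the probe set named Defa31, a gene with near-identical relatives that may share its signal, 57727 and 245509 against 10553 and 38475. RNA of both cell types was thus read, and fewer cells of a type cannot be told apart from less RNA per cell.

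The carnitine shuttle, which carries long-chain fatty acids into mitochondria, has 3 members, and at the brightest probe set of each both conventionalized signals lay below both germ-free ones. Among all genes tested, 16.1% had this pattern. The shuttle is a part of the mitochondrial class, was not a class of its own, and was not tested as a group. None of its 3 members was called by limma. Cpt1a (gene 12894), the outer-membrane transferase that sets the pace of entry, read 1272 and 699.9 in conventionalized cells, against 1841 and 1860 in germ-free cells. The groups did not overlap, and the log2 difference was -0.95 ± 0.42 (SE, 2 arrays per group; limma unadjusted p = 0.0231, adjusted p = 0.811). Dropping conventionalized replicate 2 gave -0.53, and dropping replicate 1 gave -1.36. Its other 2 probe sets also had both conventionalized values below both germ-free ones, at 1001 and 955.8 against 1543 and 1929 for the brighter of them. The dimmer read 446.7 and 588.3 against 606.2 and 640.6, and its log2 difference of -0.27 ± 0.45 was smaller than its standard error. Unlike the dimmer one, the 2 brighter probe sets carry a suffix that marks probes that may bind other transcripts. Slc25a20 (gene 57279), the carrier that swaps acylcarnitine for carnitine across the inner membrane, read 1171 and 993.3 in conventionalized cells, against 1931 and 2499 in germ-free cells. This was 2.01-fold lower (log2 difference -1.005 ± 0.42, SE; limma adjusted p = 0.703), and duplicates lay 0.23 apart on the log2 scale in conventionalized and 0.37 apart in germ-free cells. A dimmer probe set of Slc25a20 gave 186.1 and 334.4 against 213.8 and 275.0, where the groups overlapped. Cpt2 (gene 12896), the inner-membrane transferase, read 818.2 and 581.5 in conventionalized and 846.0 and 867.0 in germ-free cells, a log2 difference of -0.30 ± 0.43 that was smaller than its standard error. A second tested probe set of Cpt2 read 170.7 and 426.7 against 287.8 and 231.5, with overlap and a log2 difference of 0.07.

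The first step of the spiral is carried out by acyl-CoA dehydrogenases of differing chain length. Acadvl, for very long chains, read 1269 and 1413 in conventionalized and 1122 and 1346 in germ-free cells. Acadl, for long chains, read 1473 and 1126 in conventionalized and 580.0 and 1128 in germ-free cells, so that 1 germ-free array alone lay below the rest and the log2 difference was 0.65 ± 0.42. Acadm, for medium chains, read 2615 and 1784 in conventionalized and 2030.0 and 3065 in germ-free cells. Acads, for short chains, read 264.1 and 308.5 in conventionalized and 235.3 and 312.0 in germ-free cells. The groups overlapped for all 4 enzymes, and their log2 differences ran from -0.20 to 0.65. Whether they differ from those of the shuttle was not tested.

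The later steps gave mixed values. Echs1, the short-chain hydratase, read 192.5 and 415.3 in conventionalized and 292.2 and 169.9 in germ-free cells. Hadha, the trifunctional protein subunit with hydratase and long-chain dehydrogenase activity, read 309.6 and 145.1 in conventionalized and 207.5 and 224.3 in germ-free cells. Hadhb, its partner subunit with thiolase activity, read 9076 and 5509 in conventionalized and 7690.3 and 9531 in germ-free cells. This probe set of Hadhb carries the suffix of probes that may bind other transcripts. In Echs1, Hadha and Hadhb the conventionalized duplicates lay farther apart than the group means. Acaa2, the mitochondrial thiolase, was the exception: it read 1906 and 1461 in conventionalized cells, against 2476 and 3479 in germ-free cells, with no overlap and a log2 difference of -0.80 ± 0.42 (limma adjusted p = 0.999). A second tested probe set of Acaa2 differed by -0.13 with overlapping groups.

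Hadh, the dehydrogenase for short and medium chains, gave opposite answers at its probe sets. The brightest one, whose suffix marks probes that may bind other transcripts, read 46214 and 64541 in conventionalized cells, against 21873 and 45064 in germ-free cells. A second read 2642 and 2455 in conventionalized cells, against 6540.4 and 5452 in germ-free cells, and the remaining one read 1919.5 and 2089.7 against 2076 and 2808. The log2 differences were 0.80, -1.22 and -0.27, the second with a limma unadjusted p of 0.00776 and an adjusted p of 0.493. With quantile normalization the brightest one was at -0.67, so no direction can be given for Hadh.

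The RefSeq start sites of Hadha and Hadhb, in assembly GRCm38.p6, point away from each other on chromosome 5, and their promoter windows (250 bases before to 50 after each gene's start) share 228 bases. The shared stretch, chr5:30155003-30155230 on the plus strand, which is the strand of Hadhb, lies between the starts of these 2 subunits of 1 enzyme and is shown for that reason:
Hadha and Hadhb: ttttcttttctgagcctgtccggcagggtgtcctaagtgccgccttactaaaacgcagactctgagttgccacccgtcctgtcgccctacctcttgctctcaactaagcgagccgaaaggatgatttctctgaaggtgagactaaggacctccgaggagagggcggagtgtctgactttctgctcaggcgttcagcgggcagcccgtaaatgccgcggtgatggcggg
The log2 differences of the pair were -0.01 ± 0.61 for Hadha and -0.27 ± 0.53 for Hadhb, each smaller than its standard error. The other 2 tested probe sets of Hadhb had log2 differences above 0: one read 1151 and 1444 against 915.6 and 1507, at 0.13 with overlap, and the dimmer read 242.1 and 174.3 against 58.2 and 114.2, at 1.05 without overlap (limma adjusted p = 0.999). The mean over its 3 probe sets was 0.30, so no direction can be given for Hadhb.

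Auxiliary enzymes deal with double bonds that the spiral cannot handle. Eci1, the enoyl-CoA isomerase, read 188.6 and 529.6 in conventionalized and 487.0 and 694.7 in germ-free cells, a log2 difference of -0.80 ± 0.48 with overlapping groups. Decr1, the mitochondrial dienoyl-CoA reductase, read 1065 and 1220.0 in conventionalized cells, against 771.8 and 1030 in germ-free cells. Its groups did not overlap, but the log2 difference of 0.34 ± 0.42 was below its standard error, and a dimmer probe set stood at -0.05 with overlap. Electrons leave through Etfa and Etfb, the subunits of the electron transfer flavoprotein, and Etfdh, the dehydrogenase that hands them to ubiquinone. Etfa read 758.8 and 486.1 in conventionalized and 594.4 and 923.3 in germ-free cells, and Etfb 1454 and 1598 against 943.1 and 1613. Etfdh read 539.7 and 416.8 in conventionalized and 444.3 and 632.4 in germ-free cells. All 3 had overlapping groups, with log2 differences from -0.27 to 0.30.

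Bdh1, which interconverts the ketone bodies acetoacetate and beta-hydroxybutyrate, read 2051 and 1369 in conventionalized cells, against 1229 and 1073 in germ-free cells. The groups did not overlap, and the log2 difference was 0.53 ± 0.42 (limma adjusted p = 0.999). Acot2, a mitochondrial thioesterase that releases free fatty acid from acyl-CoA, read 399.7 and 337.4 in conventionalized and 323.2 and 368.7 in germ-free cells, with a log2 difference of 0.08 ± 0.50, and a dimmer probe set stood at 0.33, both with overlap.

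**Figure D2:**
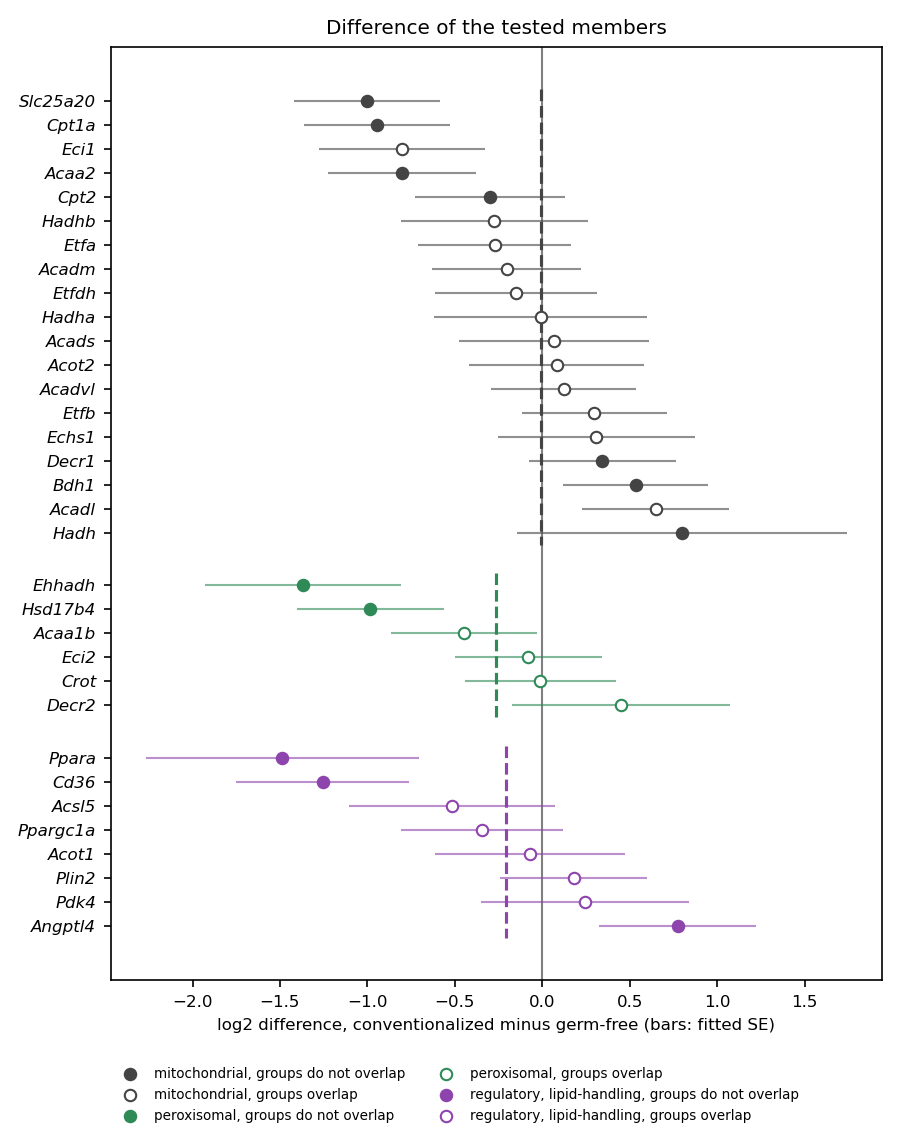
Points give the log2 difference, conventionalized minus germ-free, of the 33 tested members with the fitted standard error as bars; filled points mark members whose groups do not overlap, dashed lines the median of each class and the grey line the median of all genes tested. The lowest values are those of Ppara at -1.49, Ehhadh at -1.37 and Cd36 at -1.26, and the highest is that of Hadh at 0.80.

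Among the peroxisomal members both multifunctional enzymes read lower on each conventionalized array than on either germ-free one. Ehhadh (gene 74147), the bifunctional enzyme for straight and dicarboxylic chains and a well-known PPAR-alpha target in rodent liver, read 146.9 and 146.3 in conventionalized cells, against 347.5 and 529.2 in germ-free cells. The difference was 2.58-fold (log2 difference -1.37 ± 0.56, SE, limma unadjusted p = 0.0146, adjusted p = 0.674). Duplicates lay 0.0048 apart on the log2 scale in conventionalized and 0.56 apart in germ-free cells. Hsd17b4, the second multifunctional enzyme, which serves branched and very long chains, read 1865 and 924.2 in conventionalized cells, against 2227 and 3105 in germ-free cells. Its log2 difference was -0.98 ± 0.42 (limma adjusted p = 0.758), whereas its dimmer probe set read 704.1 and 695.7 against 592.7 and 933.9, with overlap. The brighter one carries the suffix of probes that may bind other transcripts. Leaving out conventionalized replicate 2 brought the first value to -0.49, and leaving out replicate 1 brought it to -1.48.

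The other 4 peroxisomal members had overlapping groups. Acaa1b, a peroxisomal thiolase, read 792.7 and 1196 in conventionalized and 1112 and 1617 in germ-free cells, a log2 difference of -0.45 ± 0.42. Eci2, an isomerase found in peroxisomes and in mitochondria, read 2482 and 1346 in conventionalized and 1691 and 2218 in germ-free cells. Crot, which makes carnitine esters of shortened chains for export from the peroxisome, read 598.5 and 936.3 in conventionalized and 669.7 and 854.1 in germ-free cells. Decr2, the peroxisomal dienoyl-CoA reductase, read 187.7 and 318.1 in conventionalized and 199.1 and 147.1 in germ-free cells, the sole peroxisomal member with a log2 difference above 0, at 0.45 ± 0.62. For Eci2, Crot and Decr2 the difference was smaller than the standard error.

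The receptors were dim. Ppara (gene 19013), which encodes PPAR-alpha, read 140.5 and 35.2 in conventionalized cells, against 273.8 and 265.5 in germ-free cells, a log2 difference of -1.49 ± 0.78 (limma unadjusted p = 0.057, adjusted p = 0.998). This value was the lowest among the members but was seen at 1 of 3 probe sets. It was -0.93 with the largest added constant tried, and -0.81 without conventionalized replicate 2. The others read 138.8 and 241.6 against 169.4 and 154.0, and 77.9 and 164.3 against 164.9 and 106.7, with overlap in both. The first of these, with a log2 difference of 0.16, had a mean signal of 176.0, beside 178.8 for the probe set used. The latter was thus the brightest, and passed the filter, through its germ-free signals. Ppard, for PPAR-delta, read 35.0 and 49.7 in conventionalized and 33.3 and 182.2 in germ-free cells. Pparg, for PPAR-gamma, read 19.0 and 64.2 in conventionalized and 40.4 and 38.1 in germ-free cells. At signals this low no difference in Ppard or Pparg could be measured at these probe sets.

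Ppargc1a (gene 19017), the coactivator PGC-1-alpha, had 5 tested probe sets, and all 5 had a log2 difference below 0. The brightest read 518.9 and 353.5 in conventionalized and 634.4 and 483.0 in germ-free cells, with overlapping groups and a difference of -0.35 ± 0.46 (limma adjusted p = 0.999). The largest of the 5 differences, -2.05, came from a probe set that read 157.5 and 5.1 in conventionalized cells, against 228.2 and 431.6 in germ-free cells, so a single dim reading set its size (limma adjusted p = 0.639). This probe set passed the signal filter through its germ-free signals. Probe sets of 1 gene share the same arrays and are no independent evidence.

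Pdk4, Angptl4 and Plin2, known as PPAR targets outside the spiral, had log2 differences above 0. Those of Pdk4, at 0.24 ± 0.59, and Plin2 were smaller than their standard errors and changed sign with 1 array left out. Pdk4 was at -0.39 without conventionalized replicate 1, and Plin2 at -0.03 without germ-free replicate 1. Cd36, another known target described next, had a log2 difference below 0. Pdk4, the kinase that shuts off pyruvate dehydrogenase when fat is burnt, read 402.7 and 149.5 in conventionalized and 231.4 and 181.7 in germ-free cells, with both germ-free arrays between the 2 conventionalized ones. Angptl4, the secreted inhibitor of lipoprotein lipase, read 500.1 and 1144 in conventionalized cells, against 484.3 and 383.4 in germ-free cells. Its groups did not overlap, yet the first conventionalized array lay close to the first germ-free one, and the log2 difference of 0.77 ± 0.45 was not called (limma adjusted p = 0.999); it was 0.20 without conventionalized replicate 2. Plin2, the coat protein of lipid droplets, read 946.7 and 1196 in conventionalized and 806.2 and 1086 in germ-free cells, a log2 difference of 0.18 ± 0.42.

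Fatty acid uptake and activation differed from gene to gene. Cd36 (gene 12491), the fatty acid translocase, read 146.5 and 360.6 in conventionalized cells, against 591.3 and 609.1 in germ-free cells. That is 2.39-fold lower (log2 difference -1.26 ± 0.49, SE; limma unadjusted p = 0.0109, adjusted p = 0.587), without overlap. The value was -0.69 if conventionalized replicate 1 was dropped and -1.82 if replicate 2 was. A second probe set read 35.5 and 121.9 against 294.1 and 477.8, a difference of -2.00 (limma unadjusted p = 0.00414, adjusted p = 0.361). That probe set passed the signal filter through its germ-free signals. The remaining one read 123.7 and 423.8 against 165.8 and 123.6 and overlapped. Cd36 is also expressed by capillary endothelium. The endothelial marker Kdr, chosen after its values were seen, differed in the same direction. It read 30.8 and 38.9 in conventionalized and 207.1 and 197.2 in germ-free cells (limma adjusted p = 0.999). Kdr passed the signal filter through its germ-free signals. The groups overlapped for the other endothelial markers tested, Cdh5, Tek and Vwf, and Tek had a log2 difference of 0.147. Of the 5 endothelial markers 4 were tested and 3 of these lay below 0, the defining marker Pecam1 read from 15.4 to 17.5 on all 4 arrays, and the summed signal of the 5 was 323.7 and 539.1 in conventionalized and 757.4 and 516.5 in germ-free cells. Their part in the result was not tested.

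Acsl5, an acyl-CoA synthetase abundant in intestinal epithelium, read 7609 and 10865 in conventionalized and 10086 and 16839 in germ-free cells, a log2 difference of -0.52 ± 0.59 with overlap. Acot1, the cytosolic thioesterase closely related to Acot2, read 227.4 and 319.5 in conventionalized and 255.3 and 317.5 in germ-free cells. Its log2 difference of -0.07 ± 0.54 lay well inside the standard error. Adipocytes also express Cd36, Pparg and Plin2. None of the 4 adipocyte markers with a probe set passed the signal filter, their summed signal was 270.9 and 261.1 in conventionalized and 436.3 and 106.2 in germ-free cells, and Adipoq read 3.8 and 129.0 in conventionalized and 43.1 and 27.6 in germ-free cells. Fabp4, a fatty acid carrier that adipocytes and endothelium also express, passed the filter and read 159.1 and 134.3 in conventionalized and 221.4 and 521.5 in germ-free cells. The part of adipocyte RNA was not tested.

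**Figure D3:**
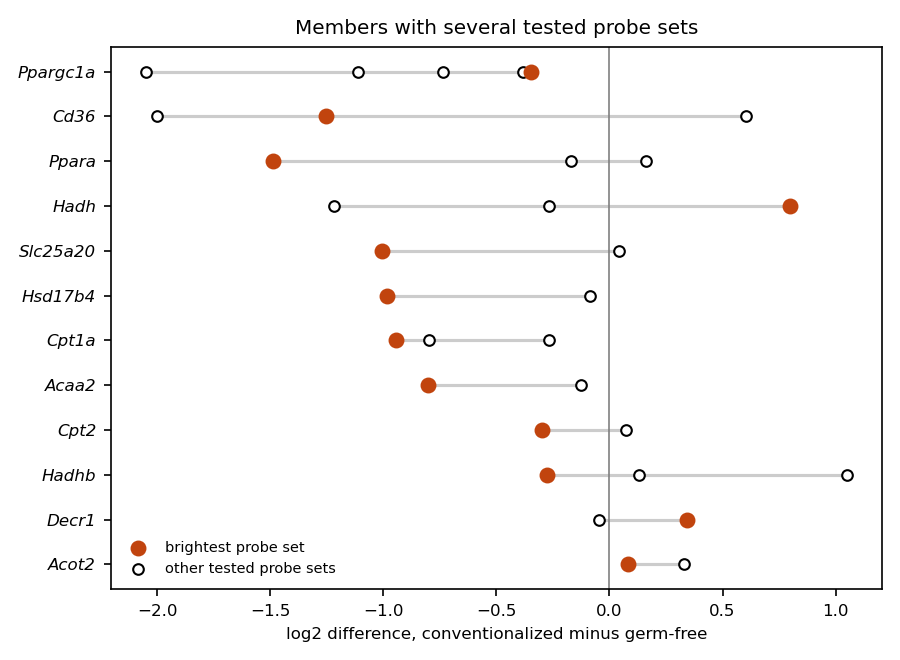
For the 12 members with more than 1 tested probe set, points give the log2 difference, conventionalized minus germ-free, at the brightest probe set (filled) and at the others (open), joined by a line. All tested probe sets lay on 1 side of 0 for 5 members, Ppargc1a, Hsd17b4, Cpt1a, Acaa2 and Acot2, and on both sides for the other 7.

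PPARs bind DNA at 2 AGGTCA half-sites spaced by 1 base, the DR1 element. The letters AGGTCANAGGTCA were searched on both strands of the RefSeq promoter windows of assembly GRCm38.p6, allowing 2 of the 12 fixed letters to differ. Of the 37 members 33 had a window, and 5 of these held a match, whereas 4.4% of all 27025 genes with a window did; with 3 letters allowed to differ, 11 members matched, beside 27.26% of all genes. The search was chosen with the values above known, and matches overlapping other motifs were kept. Of the 5 genes, Slc25a20 and Cd36 had the lower signals described above, and Plin2, Echs1 and Etfa had overlapping groups. The windows of Slc25a20 (chr9:108661886-108662185, plus strand), Cd36 (chr5:17835847-17836146, minus strand) and Plin2 (chr4:86670010-86670309, minus strand) are shown in the direction of the gene with the match in capitals, since they pair a similar element with unlike array values:
Slc25a20: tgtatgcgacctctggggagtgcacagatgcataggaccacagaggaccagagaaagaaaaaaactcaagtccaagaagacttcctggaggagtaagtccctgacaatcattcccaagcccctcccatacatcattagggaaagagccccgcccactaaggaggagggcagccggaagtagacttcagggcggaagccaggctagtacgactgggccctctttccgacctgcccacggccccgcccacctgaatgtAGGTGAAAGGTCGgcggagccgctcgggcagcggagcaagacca
Cd36: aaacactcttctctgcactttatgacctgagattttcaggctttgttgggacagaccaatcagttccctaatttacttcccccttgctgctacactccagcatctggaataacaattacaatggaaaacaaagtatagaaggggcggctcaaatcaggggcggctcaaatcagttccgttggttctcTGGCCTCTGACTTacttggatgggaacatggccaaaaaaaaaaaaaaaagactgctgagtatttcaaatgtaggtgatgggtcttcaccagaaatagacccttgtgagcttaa
Plin2: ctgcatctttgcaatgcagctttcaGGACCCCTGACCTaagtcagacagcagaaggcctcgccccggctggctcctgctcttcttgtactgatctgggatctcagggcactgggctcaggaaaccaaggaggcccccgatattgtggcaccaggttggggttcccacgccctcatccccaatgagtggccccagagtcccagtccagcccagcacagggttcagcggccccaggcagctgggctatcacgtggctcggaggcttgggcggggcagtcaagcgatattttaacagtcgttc
In Plin2 and Cd36 the match lies on the opposite strand, beginning 225 and 63 bases before the start, and in Slc25a20 it begins 6 bases past the start. No match with 2 letters differing was found in the windows of Ehhadh, Cpt1a or Ppara, which concerns these 300 bases alone. A match is a description of letters and not a bound site.

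Other genes of the pathway were 89 listed by function. Of these, 79 had a named probe set and 61 were tested; 20 had a log2 difference above 0 and 41 below, the median was -0.18, and limma called 0. An unadjusted limma p under 0.05 was reached by 2, or 3.3% beside 5.94% of all genes tested. The conventionalized signals lay below both germ-free ones for 10 of the 61, or 16.4% beside 16.1%. Cat, the catalase that removes the hydrogen peroxide made by peroxisomal oxidation, had the largest of these differences, at 3820 and 2330 in conventionalized cells, against 7298 and 9697 in germ-free cells (log2 difference -1.49 ± 0.48; limma adjusted p = 0.237). Cat passed the threshold when the arrays were quantile-normalized. Fabp4, given above, differed by -1.07, and Crat, the short-chain carnitine acetyltransferase, by -0.96, with signals of 512.7 and 606.0 against 1218 and 1027. The probe set of Crat carries the suffix of probes that may bind other transcripts. The 3 largest positive differences without overlap were those of Cyp4a31, a fatty acid hydroxylase gene, at 0.91, Fabp3, a fatty acid carrier of heart and muscle, at 0.83, and Lpin1, a phosphatidate phosphatase that also serves as a coactivator, at 0.75, each with a limma adjusted p of 0.999.

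Most markers of absorptive enterocytes had a log2 difference below 0, but the arrays did not separate by group. Of 25 markers 23 were tested, 17 of them below 0, with a median log2 difference of -0.50. Set against each gene's mean over the 4 arrays, the list's median was -0.56 and 0.14 on the conventionalized arrays. On the germ-free arrays it was -0.13 and 0.48. The conventionalized signals lay below both germ-free ones for 6 markers (26.1%, beside 16.1% of all genes) and above both for 3 (13.0%, beside 15.9%). Apoc3 and Ada, an apolipoprotein and the enzyme that deaminates adenosine, fell by 2.16 and 1.74 on the log2 scale (limma adjusted p = 0.00332 and 0.0217). The summed signal of the 23 was nonetheless 140834 and 306162 in conventionalized and 133970 and 240413 in germ-free cells, a ratio of 1.19 that became 0.656 with quantile normalization. Its brightest members were Fabp2, given above, and the apolipoprotein genes Apoa4 (24796 and 46855 against 16021 and 32097) and Apoa1 (11308 and 38476 against 21496 and 41724). No enterocyte marker was at 0. Of the Paneth markers, 11 were tested and 10 lay above 0, with a median of 1.82 and Mptx1 called. Medians of the other marker lists were 0.47 for goblet, -0.33 for enteroendocrine, -0.46 for endothelial, -0.32 for smooth muscle, 0.54 for macrophage, -0.24 for fibroblast and 0.93 for B and plasma cells. The part of enterocyte RNA in the members' differences was not tested.

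**Figure D4:**
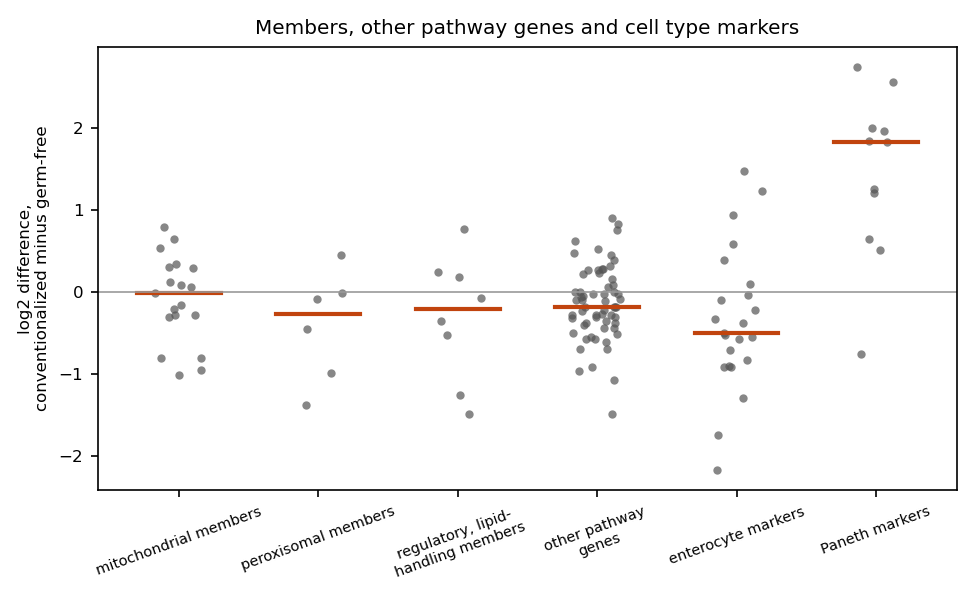
Points give the log2 difference, conventionalized minus germ-free, of each tested gene, and orange bars the median of each list; points are spread sideways for legibility. The medians are -0.01 for mitochondrial, -0.26 for peroxisomal and -0.21 for regulatory and lipid-handling members, -0.18 for the other pathway genes, -0.50 for enterocyte markers and 1.82 for Paneth markers.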

How the data were processed

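For each array the authors deposited linear intensity values, 1 for every probe set, which share a trimmed mean (2% off each end) of 250.0; the summary method is not given in the sources used here. Per the file headers the arrays were of 1 mouse design. Of 45101 probe sets, 34958 named 1 gene in the platform annotation, 34754 of them with an identifier in the GRCm38.p6 gene table; 932 named several genes and 9211 none. Intensities were taken as log2(intensity + 32), which understates the change of dim genes. The 64 control probe sets and those with a mean at or under the median of 113.9 were left out, which left 22491. Differences were tested by limma 3.58.1 under R 4.3.3 (lmFit, then eBayes with a variance trend). Calls needed an adjusted p (Benjamini-Hochberg, over all probe sets kept) under 0.05, and the script was checked on simulated data. The prior degrees of freedom were infinite beside 2 residual ones, so standard errors come from the trend with signal, not from the gene's own arrays. Duplicates are aliquots of 1 pool, so p-values cover amplification and array error, not the spread between mice, and a permutation test of 4 arrays cannot go below p = 0.333. The number of arrays limits the precision.

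The members, classes, lists and tests were chosen with earlier results of these data known. All members are named; full values go to those with non-overlapping groups and a log2 difference of at least 1 in size, the 3 brightest of each class, and the receptors and Ppargc1a, Pdk4, Angptl4, Plin2, Cpt1a and Ehhadh, and the remaining members' values were added after they were seen. Other pathway genes are named if called or among the 3 largest differences each way without overlap, and of each marker list the 3 brightest where a result touches them. Kdr, Pecam1, Adipoq, Apoc3, Ada and Mptx1 were chosen after their values were seen. Alternatives were the added constant, the filter, quantile and median scaling, no variance trend, a replicate block, all probe sets of a gene, and each array left out.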

Additional observations from a re-analysis of the deposited data

How the results depend on the processing

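No member was called under any of the 14 alternatives run. The number of probe sets called by limma was 75, and 33 with quantile normalization, 22 with median centring, 30 with the replicate block and 41 to 213 with 1 array left out. Without the variance trend limma called 0, with 975 at an unadjusted p under 0.05. The duplicate differences of the groups correlated at -0.13, and with aliquot 1 of one pool crossed with aliquot 2 of the other, chosen after seeing the data, limma called 228 probe sets and 1 other pathway gene. Equal aliquot numbers do not pair the samples. Of the other pathway genes 1, Cat, was called with quantile normalization. Members above 0 numbered 13, and 8 to 19 with 1 array left out. Without 1 array, the regulatory median ran from -0.32 (without conventionalized replicate 1) to -0.0386 (without germ-free replicate 2), and the peroxisomal one from -0.493 to -0.0365. Members wholly lower in conventionalized cells numbered 8, and 10 with quantile normalization and 6 with median scaling. With 1 array left out they numbered 9 to 17 of 33. Without germ-free replicate 1 this was 51.5%, beside 29.3% of all genes. Without germ-free replicate 2 it was 27.3%, below the 34.2% of all genes. Without conventionalized replicate 1 it was 48.5% beside 35.2%, and without conventionalized replicate 2 it was 39.4% beside 32.4%. The ratio of summed enterocyte signal, 1.19, was 0.656 with quantile normalization. Median centring moved the median of all genes to -0.10. The causes were not tested. At low signal, as for the receptors, size depends on the added constant.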

Other observations

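Probe sets that name a member together with a second gene were left out of the comparisons. The brighter one shared by Acaa1b and Acaa1a, near-identical peroxisomal thiolases, read 1716 and 2207 in conventionalized and 1901 and 3840 in germ-free cells, a log2 difference of -0.47 with overlapping groups. One shared by Acot2 and Acot1 read 201.4 and 148.8 in conventionalized and 435.2 and 158.7 in germ-free cells, where a single germ-free array stood apart. Another, shared by Ppard and 1810013A23Rik, passed the filter. It read 35.6 and 280.4 in conventionalized and 239.3 and 108.1 in germ-free cells, a log2 difference of -0.42 ± 0.84 with overlapping groups. A dim second probe set of Etfdh, under the signal filter, read 7.2 and 360.5 in conventionalized and 3.5 and 6.6 in germ-free cells, so that 1 array alone showed it.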
